A study of Mus musculus with 24 samples.

Results

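The genes described here are the chaperones and heat shock proteins of the mouse striatum, 74 of the 54532 genes in the deposited table of read counts. They were taken by name: protein-coding genes whose symbol starts with Hspa, Hspb, Hsp90, Hspd, Hspe, Hsph, Dnaja, Dnajb or Dnajc, or is Cct followed by a digit, or is Hsf1. A sum of at least 240 reads over the 24 libraries was also required. The names matched 83 genes, and the other 9 (Cct6b, Hspb2, Hspb9, Dnajb7, Hspb7, Dnajb8, Dnajc22, Dnajc5b and Dnajc5g) had between 2 and 155 reads and are not described further. Just inside the minimum were Hspb3, Cct8l1 and Dnajb13, with 249, 319 and 434 reads. Levels are given as CPM, a gene's share of the library's counts in parts per 1e6, after edgeR's TMM scaling. Of the 74 genes, Hspbp1, Hspbap1 and Hspb11 share the letters of the small heat shock proteins but are not of that family, and are kept apart below.

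Striatal RNA was sequenced from 24 mice on the C57BL/6 background, 6 of each of 4 genotypes. WT mice carried neither change, TyrobpKO mice lacked Tyrobp, Q175 mice were heterozygous for the Q175 allele, and Q175_TyrobpKO mice carried the Q175 allele and lacked Tyrobp. Q175 denotes a knock-in allele with a long CAG repeat in the mouse Huntingtin gene Htt, a model of Huntington's disease, in which striatal projection neurons are affected early. Tyrobp encodes an adaptor of receptors on microglia, the immune cells of the brain. Each genotype had 3 males (replicates 1 to 3) and 3 females (replicates 4 to 6), each library came from the striatum of 1 hemisphere, and age was not stated. The animal names of both deletion genotypes began with the letter T, those of all Q175 mice with Q, a letter that WT replicate 3 alone shared, and those of the other WT mice with WT. A colony or litter that these letters may mark cannot be told apart from the Tyrobp genotype and is in part mixed with the contrast of Q175 and WT.

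Chaperones bind unfolded or partly folded proteins, keep them from aggregating and help them fold, assemble, cross membranes or be degraded. Hsp70 proteins do so in cycles of ATP binding and hydrolysis that J-domain proteins (the Dnaj genes) start and exchange factors such as the Hsp110 proteins end, while Hsp90 acts late on selected clients and the CCT complex encloses actin, tubulin and other proteins in a barrel of stacked rings. Small heat shock proteins hold clients without ATP, and Hsp60 with Hsp10 folds proteins inside mitochondria. The heat shock factor Hsf1 induces many of these genes under stress in the cytosol, and a separate response induces those of the endoplasmic reticulum. In Huntington's disease chaperones have been studied because several of them, among them DNAJB6 and the Hsp70 system, slow the aggregation of polyglutamine proteins in cell models.

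The libraries held between 25482686 and 34626720 counts. Tyrobp lay between 0.214 and 0.448 CPM in the 12 mice labelled as deleted and between 5.69 and 11.8 CPM in the other 12, and Htt lay between 137 and 178 CPM in the 12 carriers of the Q175 allele and between 188 and 236 CPM in the 12 non-carriers, so neither gene overlapped between its groups and Tyrobp matched every label. The 12 marker genes of striatal projection neurons, summed, lay between 5966 and 9223 CPM in WT, 5598 and 9119 in TyrobpKO, 3910 and 5687 in Q175, and 3487 and 5573 in Q175_TyrobpKO. All 12 were abundant, as the tissue label implies, and 10 of the 12 were called lower in Q175 against WT. In bulk RNA, fewer cells of a type and less RNA per cell cannot be told apart. The 5 marker genes of cortical excitatory neurons, summed, lay between 37.1 and 630 CPM in WT and between 397 and 850 in TyrobpKO. They lay between 24.4 and 711 CPM in Q175 and between 21.3 and 815 in Q175_TyrobpKO. Their part in the chaperone values was not tested. The summed level of the 74 chaperone genes had a median of 10274 CPM for WT, 9762 for TyrobpKO, 10223 for Q175 and 10014 for Q175_TyrobpKO, with overlapping ranges.

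Together the 74 genes took 6764982 reads, 1.002% of all reads. A trio of genes led by level per length, given as RPKM, the CPM divided by the gene length in kilobases that the authors list. Hsp90ab1, the constitutive cytosolic Hsp90, had a mean of 486 RPKM over the 24 mice. Hspa8, the constitutive cytosolic Hsp70 that also strips clathrin from synaptic vesicles, had 349 RPKM, and Hsp90aa1, the stress-responsive cytosolic Hsp90, had 254. These 3 genes held 39.4% of the reads of the 74. Well below them came Hsp90b1 of the endoplasmic reticulum (64.7 RPKM), the mitochondrial Hsp60 Hspd1 (63.3), the J-domain protein Dnaja2 (63.0), the mitochondrial Hsp70 Hspa9 (59.7) and Hspa5, the Hsp70 of the endoplasmic reticulum also called BiP (56.2).

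Within the other families the leading genes per length were Hsph1 (52.0 RPKM) and Hspa4 (48.8) of the Hsp110 proteins, and Dnaja1 (29.2) behind Dnaja2 in class A of the J-domain proteins. Class B was led by Dnajb2 (24.01) and Dnajb6 (18.8), and class C by the synaptic vesicle protein Dnajc5 (51.2) and the clathrin-uncoating auxilin Dnajc6 (42.9). In CCT, Cct2 (49.0) and Cct8 (47.4) led, and Hsf1 itself was at 5.29 RPKM. The small heat shock proteins were low, with Hspb8 at 5.01, Hspb1 at 4.51, Hspb6 at 1.93 and Hspb3 at 0.476 RPKM. The stress-inducible Hsp70 genes Hspa1b (1.33 RPKM) and Hspa1a (1.24) stood far below their constitutive relative Hspa8.

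Most of these genes varied little between animals of the same genotype. The coefficient of variation (SD over mean, averaged over the 4 genotypes) had a median of 8.05% across the 74 genes. It was lowest for Hspa9 (3.14%), Dnajc18 (3.35%) and Cct2 (3.81%), and highest for Hspb3 (73.1%), the ciliary Dnajb13 (45.7%) and Cct8l1 (38.8%), which are all under 1 CPM. Hspa1b followed at 32.9%, with a mean level of several CPM. By family, the median coefficient was 5.33% in CCT and 23.7% in the small heat shock proteins.

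**Figure D1:**
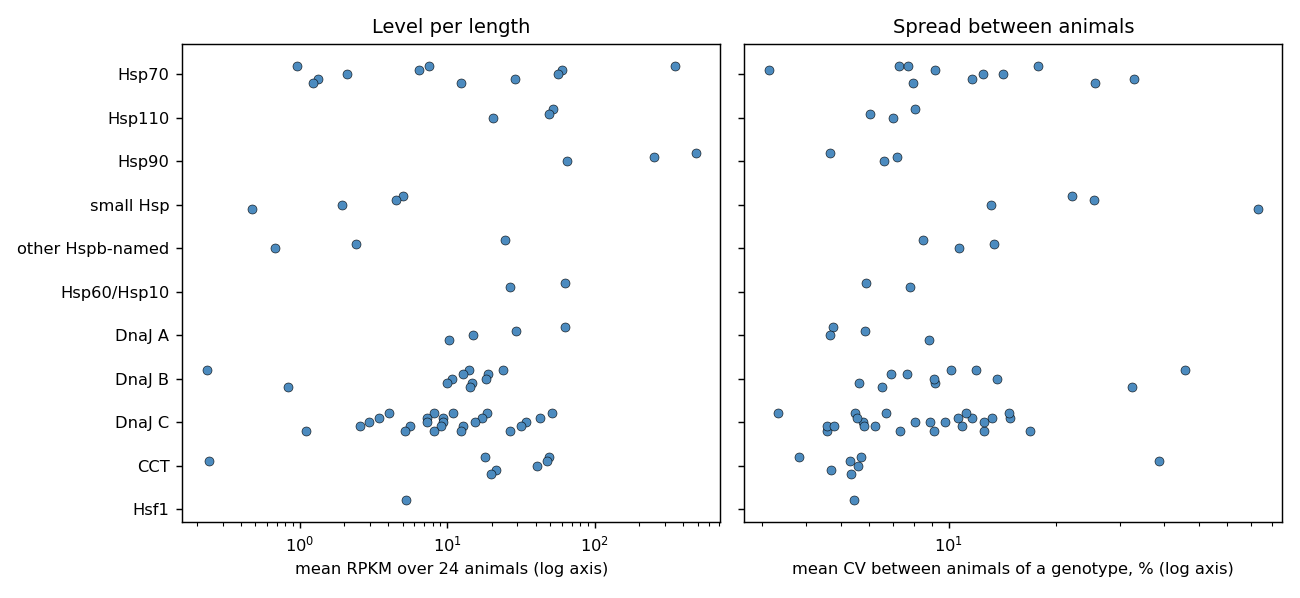
Level and spread of the 74 genes by family. The left panel gives the mean level per length over 24 mice (RPKM, log axis) and the right panel the coefficient of variation between animals of a genotype, averaged over the 4 genotypes (percent, log axis); each point is 1 gene. Hsp90ab1, Hspa8 and Hsp90aa1 lie at the right of the left panel at 254 to 486 RPKM, and Hspb3 lies at the right of the right panel at 73.1%.

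Response elements of the heat shock response and of the endoplasmic reticulum response were looked for in the promoters, because genes of both are described below. Promoter windows from RefSeq (build GRCm38.p6), 250 bases before to 50 after a gene's start, were at hand for 61 of the 74 genes. The heat shock element, searched as GAA, TTC and GAA with any 2 bases between each pair and on both strands, was in the windows of 4 of the 61 genes (Hspd1, Hspe1, Dnajb6 and Hsph1) and of 179 of 27025 gene symbols (0.662%). The endoplasmic reticulum stress element, searched on both strands as CCAAT and CCACG with any 9 bases between them, was in 3 of the 61 (Hspa5, Hsp90b1 and Dnajc3) and in 37 of the 27025 (0.137%). A match is a description of the letters and does not show that a factor binds there. The match of Hsph1 lies after the gene's start and is not printed. Genes without a window could not be searched. Below, capitals mark the matched letters, and overlapping matches run together.

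Hspd1 and Hspe1, which encode the mitochondrial Hsp60 and Hsp10, are transcribed away from each other from starts 215 bases apart, and 2 overlapping heat shock elements lie between those starts at chr1:55088053-55088082, read on the plus strand.
Hspd1-Hspe1: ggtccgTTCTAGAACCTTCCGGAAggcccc
The match of Dnajb6, a suppressor of polyglutamine aggregation, lies at chr5:29735844-29735872 on the plus strand. Both this stretch and the one above also fall inside an exon of another annotated transcript.
Dnajb6: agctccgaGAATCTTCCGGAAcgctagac
The match of Hspa5 lies at chr2:34772020-34772048 and that of Dnajc3, which restrains the kinase PERK, at chr14:118937812-118937860, both on the plus strand. The stretch of Hspa5 falls inside the first exon of a transcript in GENCODE release M21.
Hspa5: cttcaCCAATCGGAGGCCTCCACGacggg
Dnajc3: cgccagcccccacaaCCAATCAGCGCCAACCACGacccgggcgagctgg
Hsp90b1 has 2 matches, 1 on each strand, shown with the bases between them at chr10:86705518-86705671 on the minus strand.
Hsp90b1: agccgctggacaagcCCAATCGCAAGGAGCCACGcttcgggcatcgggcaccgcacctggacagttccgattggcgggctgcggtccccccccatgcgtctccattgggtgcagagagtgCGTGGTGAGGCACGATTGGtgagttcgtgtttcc

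Q175 against WT, the allele's contrast in mice that have Tyrobp, was examined first. Of the 74 chaperone genes, 3 rose (Hspa13, Hspa2 and Cct4) and 3 fell (Hsp90b1, Dnajc7 and Dnajc8), all by less than 0.31 on the log2 scale. These 6 are 8.11% of the 74, beside 9.63% of all 19667 genes tested (4.15% higher and 5.47% lower), so the share is near the background and is not a result about chaperones as a group. The median log2 fold change was 0.00 over the 74 genes and 0.01 over all genes. An unadjusted p under 0.05 was found for 16 of the 74, beside 4448 of all 19667 genes. Calls were made with edgeR's quasi-likelihood test wherever p, adjusted over all genes by the method of Benjamini and Hochberg, was under 0.05. Every adjusted p below is from that test unless another is named. Gene coordinates are those of the deposited table, on the mouse build GRCm38. Between the 6 Q175 and 6 WT mice, 3 of the 74 genes did not overlap (Hspa13 higher, Hsp90b1 and Dnajc7 lower), beside 4.08% of all genes (1.69% higher and 2.39% lower).

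Hspa13 (ENSMUSG00000032932, chromosome 16, 75745431 to 75767104) encodes a microsome-associated Hsp70-like protein, also called Stch. Its lowest, median and highest levels were 44.4, 47.5 and 51.9 CPM in WT and 53.9, 59.0 and 64.2 CPM in Q175. Every Q175 mouse lay above every WT mouse. The log2 fold change was 0.30 ± 0.07 (SE; adjusted p 0.00342), an increase of 23.2%.

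Hspa2 (ENSMUSG00000059970, chromosome 12, 76404176 to 76406938), an Hsp70 best known from the testis and also present in brain, was at 26.9, 29.6 and 31.5 CPM in WT and 31.3, 35.1 and 40.1 CPM in Q175. The groups met at their edges, with the lowest Q175 mouse just under the highest WT mouse. The rise was 0.27 ± 0.07 (adjusted p 0.0105). Cct4 (ENSMUSG00000007739, chromosome 11, 22990519 to 23003780), a CCT subunit, was at 73.0, 78.0 and 87.1 CPM in WT and 82.0, 89.3 and 102 CPM in Q175, again with some overlap. Its rise of 0.19 ± 0.05 was called (adjusted p 0.0182), but not without WT replicate 1 or without Q175 replicate 4, where the adjusted p reached 0.0547, nor with only the 12 libraries of the 2 groups (0.0834).

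Hsp90b1 (ENSMUSG00000020048, chromosome 10, 86690209 to 86705509) encodes GRP94, the Hsp90 of the endoplasmic reticulum, and carries the pair of stress elements printed above. It was at 269.8, 303 and 325 CPM in WT and 215, 255 and 266 CPM in Q175. Every Q175 mouse lay below every WT mouse. It fell, with a log2 fold change of -0.27 ± 0.06 (adjusted p 0.00330). WT replicates 2 and 3, described below, were among the higher WT mice for this gene. Without both of them the value was -0.20 and no longer called (adjusted p 0.0786).

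Dnajc7 (ENSMUSG00000014195, chromosome 11, 100582818 to 100620168), a J-domain protein with TPR repeats that binds both Hsp70 and Hsp90, was at 155, 173.8 and 185 CPM in WT and 138, 145 and 149 CPM in Q175, without overlap. It fell, with a log2 fold change of -0.25 ± 0.06 (adjusted p 0.00357). Its exons overlap those of Cnp and Nkiras2 on the other strand, and whether strand was used in counting is not given in the sources used here. Cnp and Nkiras2 were not called. The same contrast gave 0.08 for Cnp (adjusted p 0.740) and -0.05 for Nkiras2 (adjusted p 0.831). Dnajc8 (ENSMUSG00000054405, chromosome 4, 132535550 to 132553742), a nuclear J-domain protein linked to splicing, was at 83.1, 97.9 and 103 CPM in WT and 69.9, 80.5 and 86.3 CPM in Q175. WT replicate 2, at 83.1 CPM, was the single WT mouse inside the Q175 range. Its log2 fold change was -0.27 ± 0.05 (adjusted p 0.00133), the smallest p of the 74 genes in this contrast.

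Genes of adjusted p between 0.05 and 0.1 were not called. Hspa12b, an Hsp70 relative found in endothelium, was at 6.22, 8.28 and 10.1 CPM in WT and 5.84, 6.15 and 7.44 CPM in Q175, a difference of -0.38 ± 0.12 (adjusted p 0.0522). The summed markers of endothelium and pericytes were at 296 to 323 CPM in WT and 266 to 298 CPM in Q175, and their part in this value was not tested. Hspa8 differed by 0.18 ± 0.07 (adjusted p 0.0749), Cct2 by 0.12 ± 0.04 (0.0742) and Hspb6 by 0.36 ± 0.13 (0.0830), with higher means in Q175. Hspa4 differed by -0.15 ± 0.05 (0.0744), with a lower mean in Q175. DESeq2 called Hspa12b, Hspa8, Cct2, Hspa4 and Hspa1b in addition to the same 6 genes, 11 in all. It also called more of all genes in Q175 against WT, 11.8% beside 9.63% in edgeR, so the larger count partly follows the background.

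**Figure D2:**
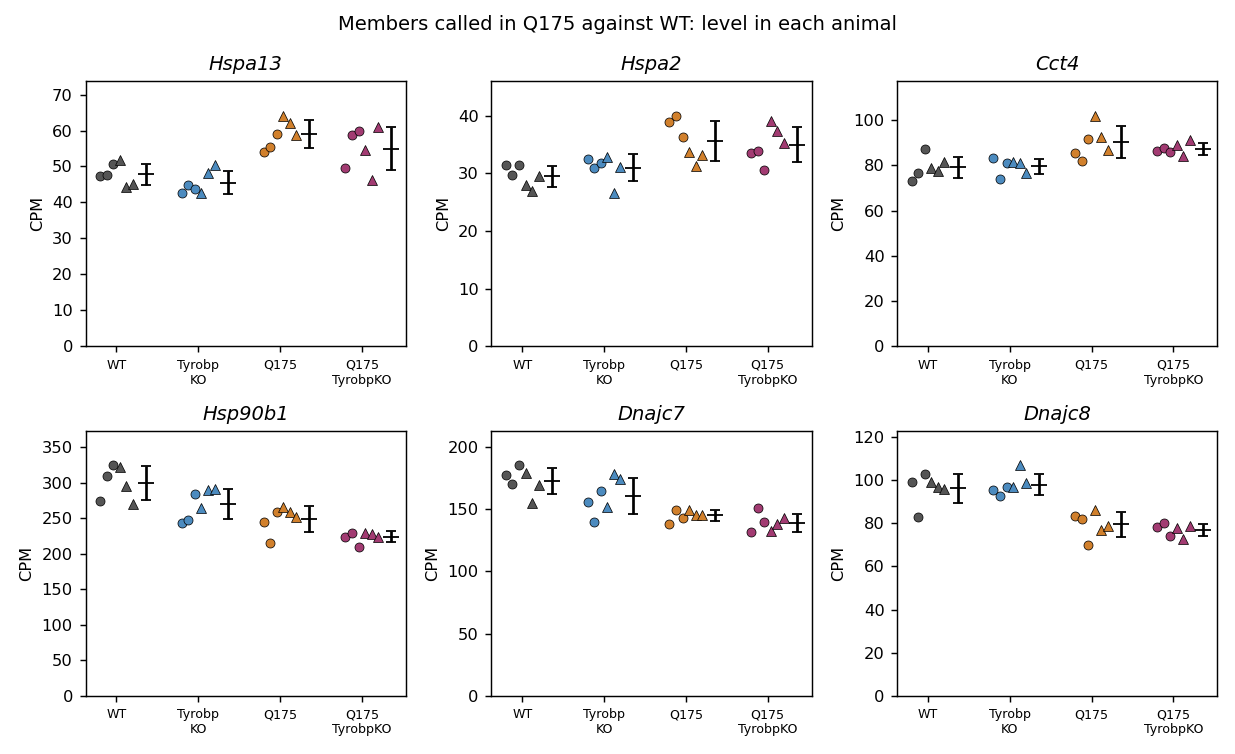
Levels of the 6 chaperone genes called in Q175 against WT. The y axis gives CPM (TMM-scaled) from 0; each circle is a male and each triangle a female, and the bar beside each genotype gives mean ± SD (n = 6). Hspa13 lies higher in the Q175 mice (53.9 to 64.2 CPM) than in WT (44.4 to 51.9), and Hsp90b1 lies lower (215 to 266 against 270 to 325).

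Q175_TyrobpKO against TyrobpKO measured the allele in mice without Tyrobp and shares no library with Q175 against WT. In it 4 of the 74 genes were called, 1 higher (Hspa13) and 3 lower (Hsp90b1, Dnajc7 and Dnajc8), which is 5.41% beside 5.86% of all genes (2.78% higher and 3.08% lower). All 4 had been called in Q175 against WT with the same sign, so the overlap is 4 of 6 and 4 of 4. Over all genes the same overlap was 41.4% of the first list and 67.9% of the second. Signs matched for 55 of the 74 genes (74.3%), beside 69.4% of all genes.

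Hspa13 was at 42.7, 44.3 and 50.5 CPM in TyrobpKO and 46.3, 56.6 and 60.9 CPM in Q175_TyrobpKO. Q175_TyrobpKO replicates 1 and 5 fell inside the TyrobpKO range, and the other 4 lay above it. The log2 fold change was 0.28 ± 0.07 (adjusted p 0.0113). Hsp90b1 was at 244, 275 and 292 CPM in TyrobpKO and 209.7, 227 and 229.8 CPM in Q175_TyrobpKO, with no overlap. Its change of -0.27 ± 0.06 (adjusted p 0.00503) was of the size seen with Tyrobp present.

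Dnajc8 was at 92.7, 96.8 and 107 CPM in TyrobpKO and 72.6, 78.0 and 80.2 CPM in Q175_TyrobpKO, again with no overlap, and fell with a log2 fold change of -0.35 ± 0.05 (adjusted p 0.000164). Dnajc7 was at 140.1, 160.1 and 179 CPM and 131, 139 and 151 CPM, with overlap. Its change was -0.21 ± 0.06 (adjusted p 0.0261), and the call was lost in 7 of 24 fits that each left out 1 library, with an adjusted p of up to 0.118. The libraries concerned were TyrobpKO replicates 1, 3, 5 and 6 and Q175_TyrobpKO replicates 1, 4 and 5. The overlapping genes gave -0.01 for Cnp (adjusted p 0.973) and -0.06 for Nkiras2 (adjusted p 0.814) here. Of 6 oligodendrocyte markers, Cnp among them, 6 had a negative value in this contrast and 2 were called lower (median -0.18). Summed, they lay between 9291 and 13729 CPM in TyrobpKO and between 7549 and 10191 CPM in Q175_TyrobpKO, and their part in the value of Dnajc7 was not tested. Hspa2 (0.18 ± 0.07, adjusted p 0.142) and Cct4 (0.14 ± 0.05, 0.132) were not called in this contrast. In levels that did not overlap, Hsp90b1 and Dnajc8 were joined by Cct4, Dnajc11 and Dnajc18, all 3 higher in Q175_TyrobpKO, which makes 5 of 74 beside 4.49% of all genes (2.22% higher and 2.27% lower).

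**Figure D3:**
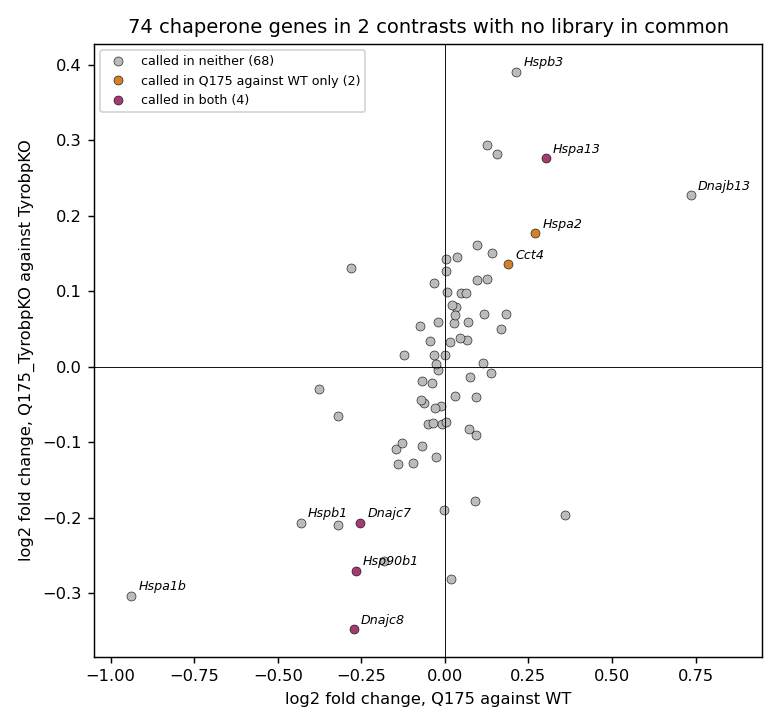
Log2 fold changes of the 74 genes in 2 contrasts with no library in common. The x axis gives Q175 against WT and the y axis Q175_TyrobpKO against TyrobpKO; each point is 1 gene, coloured by the contrasts in which it was called. The 4 genes called in both lie in the upper right (Hspa13) or lower left (Hsp90b1, Dnajc7, Dnajc8), and Hspa1b lies far left at -0.94 without being called.

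The test of the difference between these effects, the interaction of the Q175 allele with the Tyrobp genotype, called 0 of the 74 genes in edgeR, and DESeq2 and limma-voom called 0 as well, beside 0% of all genes in edgeR. The single gene of the 74 with an unadjusted p under 0.05 was Hspb6 (-0.55 ± 0.18, adjusted p 0.999), beside 707 of all 19667 genes. For Hspa13 the interaction was -0.03 (95% interval -0.21 to 0.16), for Hsp90b1 -0.00 (-0.17 to 0.16), for Dnajc8 -0.07 (-0.22 to 0.08) and for Dnajc7 0.05 (-0.11 to 0.20).

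The 12 carriers were also set against the 12 non-carriers, as the mean of both Q175 effects. In this contrast, which contains the libraries of the preceding ones, 8 genes were called higher and 5 lower, 17.6% of the 74 beside 18% of all genes (8.85% higher and 9.17% lower). The 6 genes named above were among them. The others were small changes: Cct2 (0.12 ± 0.03, adjusted p 0.00724), Cct3 (0.13, 0.0121), Dnajc18 (0.10, 0.0141), Dnajc15 (0.15, 0.0331) and Dnajc12 (0.21, 0.0328) rose, and Hspa4 (-0.13, 0.0148) and Dnajc2 (-0.22, 0.0384) fell. Dnajc15 is a J-domain protein of the inner mitochondrial membrane, Dnajc12 binds aromatic amino acid hydroxylases, and Dnajc2 sits at the ribosome with Hspa14. The calls of Dnajc15, Dnajc2 and Dnajc12 were lost in 4, 14 and 9 of 24 fits that each left out 1 library, and all 3, like that of Hspa4 (-0.11, adjusted p 0.0673), without WT replicates 2 and 3. The adjusted p then reached at most 0.0636 for Dnajc15 (without Q175_TyrobpKO replicate 6), 0.0914 for Dnajc2 (without WT replicate 3) and 0.0717 for Dnajc12 (without Q175 replicate 2) in the fits that left out 1 library. The other libraries that ended the call of Dnajc15 were Q175 replicate 5 and Q175_TyrobpKO replicates 2 and 4. No gene of the 74 was fully separated between the 12 carriers and the 12 non-carriers, beside 1.14% of all genes.

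In the CCT complex, 6 abundant subunits were measured. Of these, 3 were called higher in carriers (Cct2, Cct3 and Cct4) and 0 lower, beside 18% of all genes called and 8.85% called higher. The 6 subunits had a median log2 fold change of 0.09 and a range of -0.01 to 0.16, beside a median of 0.00 over all genes. Cct2 (ENSMUSG00000034024, chromosome 10, 117051001 to 117063814) averaged 121 ± 3.22 CPM (SD, n = 6) for WT, 119 ± 3.91 for TyrobpKO, 131 ± 6.89 for Q175 and 129 ± 5.23 for Q175_TyrobpKO. Cct3 (ENSMUSG00000001416, chromosome 3, 88297116 to 88321767) was at 113 ± 4.94, 106 ± 5.85, 121 ± 8.11 and 118 ± 7.16 CPM in the same order. Cct5, Cct8 and Cct7 were not called, at 0.05, 0.04 and -0.01. Q175 replicate 4 was the highest Q175 mouse for 6 of the 6 subunits, for example 172.4 CPM for Cct8 where the Q175 median was 146. Without that library Cct4 remained called in carriers (0.14, adjusted p 0.00406). The subunit Tcp1, which the name rule does not reach, was not called in Q175 against WT (0.05 ± 0.07, adjusted p 0.714), and of the 10 genes of Tcp1 and the prefoldins and phosducin-like proteins that hand substrates to CCT, 2 (20%, beside 9.63% of all genes) were called higher and 0 lower there: Vbp1, a prefoldin subunit (0.31 ± 0.06, adjusted p 0.000636), and Pdcl (0.36 ± 0.06, 0.000519).

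In the Hsp110 family, Hspa4 (ENSMUSG00000020361, chromosome 11, 53259814 to 53300457) averaged 292 ± 19.8 CPM for WT and 264 ± 16.6 for Q175, and 271 ± 16.2 CPM for TyrobpKO and 251 ± 12.7 for Q175_TyrobpKO (SD, n = 6 each). Its relatives Hsph1 (-0.11 ± 0.05 in carriers, adjusted p 0.102) and Hspa4l (-0.01, 0.900) were not called. The cytosolic Hsp90 genes were not called either, with 0.08 for Hsp90ab1 (95% interval 0.01 to 0.15) and 0.06 for Hsp90aa1 (-0.03 to 0.15) in carriers. In mitochondria, Hspd1 differed by 0.02 (-0.05 to 0.10), Hspe1 by 0.02 (-0.09 to 0.13) and Hspa9 by 0.01 (-0.05 to 0.07), again on the log2 scale and not called. The exons of Hspd1 and Hspe1 overlap on opposite strands, so their reads are not fully separable.

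Among genes linked to synapses or to polyglutamine proteins, 0 of 7 (Dnajb6, Dnajb2, Dnajc5, Dnajc6, Dnaja1, Dnajb1 and Hspa8) were called in any genotype contrast by edgeR, with at most 1 at an unadjusted p under 0.05 in each, and DESeq2 called Hspa8 in Q175 against WT. Of all genes, edgeR called 9.63% in Q175 against WT, 5.86% in Q175_TyrobpKO against TyrobpKO and 18% in carriers. DESeq2 called 11.8% of all genes in Q175 against WT. With only 7 genes, a count of 0 is not a result about the set. Dnajb6 (ENSMUSG00000029131, chromosome 5, 29735688 to 29818134) averaged 112 ± 6.73 CPM for WT and 112 ± 10.8 for Q175 (-0.01 ± 0.06, adjusted p 0.965), and 119 ± 3.74 for TyrobpKO and 113 ± 10.1 for Q175_TyrobpKO (-0.08 ± 0.06, 0.584). Dnajb2, which is enriched in neurons, gave 0.03 ± 0.10 (adjusted p 0.888) in Q175 against WT. Dnajc5, the cysteine string protein of synaptic vesicles, gave -0.04 ± 0.05 (0.742) and auxilin, Dnajc6, 0.12 ± 0.09 (0.509). The Hsp40 partners of Hspa8, Dnaja1 (-0.04 ± 0.06) and Dnajb1 (0.01 ± 0.09), also had adjusted p values far above 0.05 (0.718 and 0.983). In class A, Dnaja3 and Dnaja2 had the smallest p values, at 0.07 ± 0.05 and -0.05 ± 0.05, and in class B Dnajb13 and Dnajb14, at 0.74 ± 0.45 and 0.07 ± 0.05, with none called.

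The chaperones of the endoplasmic reticulum did not move in a single direction. Of 8 genes, 1 rose (Hspa13) and 1 fell (Hsp90b1) in each Q175 contrast, and the other 6 were not called. These 2 are 25% of the set, beside 9.63% of all genes in Q175 against WT and 5.86% in the other contrast. Hspa5 was at 199, 232 and 357 CPM in WT, 202, 225 and 275 CPM in TyrobpKO, 214, 240.4 and 287 CPM in Q175 and 206, 225 and 229 CPM in Q175_TyrobpKO. The WT range enclosed that of Q175, and the difference was -0.03 ± 0.11 (adjusted p 0.907). Hspa5, Hsp90b1 and Dnajc3 hold the same element in their promoter windows, and of the 3 only Hsp90b1 was called. Dnajc3 differed by 0.09 ± 0.07 in Q175 against WT (adjusted p 0.486), while Q175_TyrobpKO against TyrobpKO gave -0.09 ± 0.07 (0.567). The remaining values for Q175 against WT were 0.03 for Dnajb9, -0.06 for Dnajb11, -0.07 for Dnajc1 and -0.01 for the disulfide reductase Dnajc10.

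A list of 20 other genes of the endoplasmic reticulum stress response had 0 called higher and 2 called lower in Q175 against WT, with a median log2 fold change of -0.09 beside 0.01 over all genes. The 2 are 10% of the list, near the 9.63% of all genes called (5.47% lower). They were Atf6 (-0.53 ± 0.06, adjusted p 4.32e-07), a membrane-bound transcription factor of this response, and Trib3 (-0.85 ± 0.25, 0.0288). Atf6 averaged 146 ± 9.17 CPM (SD, n = 6) for WT, 138 ± 9.04 for TyrobpKO, 101 ± 9.38 for Q175 and 102 ± 3.64 for Q175_TyrobpKO. In Q175_TyrobpKO against TyrobpKO the called genes were Atf6 (-0.43, 2.11e-05) and Ddit3 (-0.39, 0.00418), both lower (10% of the list, beside 5.86% of all genes). In carriers 5 of the 20 were lower (Atf6, Ddit3, Trib3, Calr and Ppp1r15a) and 0 higher, 25% beside 18% of all genes (9.17% lower). Xbp1 (-0.04), Atf4 (-0.02) and Herpud1 (0.08) were not called in Q175 against WT.

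Of 39 co-chaperones and regulators, 2 rose and 0 fell in Q175 against WT, with a median log2 fold change of 0.02. The 2 are 5.13% of the list, under the 9.63% of all genes called. Ahsa2, a relative of the Hsp90 activator Ahsa1, rose by 0.52 ± 0.09 (adjusted p 0.000466), from 13.2 ± 1.496 CPM in WT to 18.9 ± 3.09 in Q175 (SD, n = 6 each). Hdac6, a deacetylase of tubulin and Hsp90, rose by 0.19 ± 0.05 (0.0188). Both were called in Q175_TyrobpKO against TyrobpKO as well, at 0.35 (0.0259) and 0.18 (0.0371). The ubiquitin ligase Stub1 (-0.19), the small heat shock protein Cryab (-0.03) and Bag3 (0.19) were not called in Q175 against WT. Hsf1 (ENSMUSG00000022556, chromosome 15, 76477422 to 76501913) averaged 39.3 ± 1.53 CPM for WT and 36.1 ± 1.65 for Q175 (-0.12 ± 0.06, adjusted p 0.181), and its value in Q175_TyrobpKO against TyrobpKO was 0.02 ± 0.06 (0.920).

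The 10 genes of the stress-inducible set (Hspa1a, Hspa1b, Hspa8, Hsph1, Dnajb1, Dnaja1, Hsp90aa1, Hspb1, Hspd1 and Hspe1) were not called in any genotype contrast by edgeR, while DESeq2 called Hspa8 and Hspa1b in Q175 against WT. Of all genes, 9.63% were called by edgeR in Q175 against WT, 5.86% in Q175_TyrobpKO against TyrobpKO and 18% in carriers. The share called by DESeq2 in Q175 against WT was 11.8%. In edgeR, 3 of 10 were at an unadjusted p under 0.05 in Q175 against WT and 5 of 10 were in TyrobpKO against WT. Over all 19667 genes those counts were 4448 and 1269. The values of the 10 genes in WT were spread by a pair of males. Hspa1b (ENSMUSG00000090877, chromosome 17, 34956436 to 34959238) was at 2.40, 9.49 and 13.7 CPM in WT replicates 1, 2 and 3 and at 4.11, 3.85 and 2.51 in replicates 4, 5 and 6, while the other 18 mice lay between 1.95 and 3.96 CPM. Only WT replicates 2 and 3 stood above that range by a wide margin. The difference in Q175 against WT was -0.94 ± 0.31 (adjusted p 0.0619), -0.56 without WT replicate 3 (adjusted p 0.191) and -0.04 without both (adjusted p 0.947). In the other direction, Hspa1b was called without WT replicate 1 and without WT replicate 6. Over the 24 fits that each left out 1 library, its value reached -1.10 and its adjusted p 0.0160.

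Hspa1a (ENSMUSG00000091971, chromosome 17, 34969190 to 34972156), a near-identical copy whose reads may be split with those of Hspa1b, was likewise highest in WT replicates 3 and 2, at 8.14 and 6.33 CPM, against 2.91 to 4.74 CPM in Q175. Its difference was -0.32 ± 0.22 (adjusted p 0.423). Of the 10 inducible genes, WT replicate 3 was the highest WT mouse for 5 and WT replicate 2 for 4. A leading library was not particular to WT: Q175 replicate 4 was the highest Q175 mouse for 6 of the 10. WT replicate 3 was also the highest WT mouse for 4 of the 8 genes of the endoplasmic reticulum, with Hspa5 at 357 CPM. WT replicates 2 and 3 also led WT in the summed level of 8 immediate early genes, at 1539 CPM in replicate 2 and 1317 in replicate 3, where the other 4 WT mice had 437 to 1027 CPM. The part of what those genes mark in the chaperone values was not tested.

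**Figure D4:**
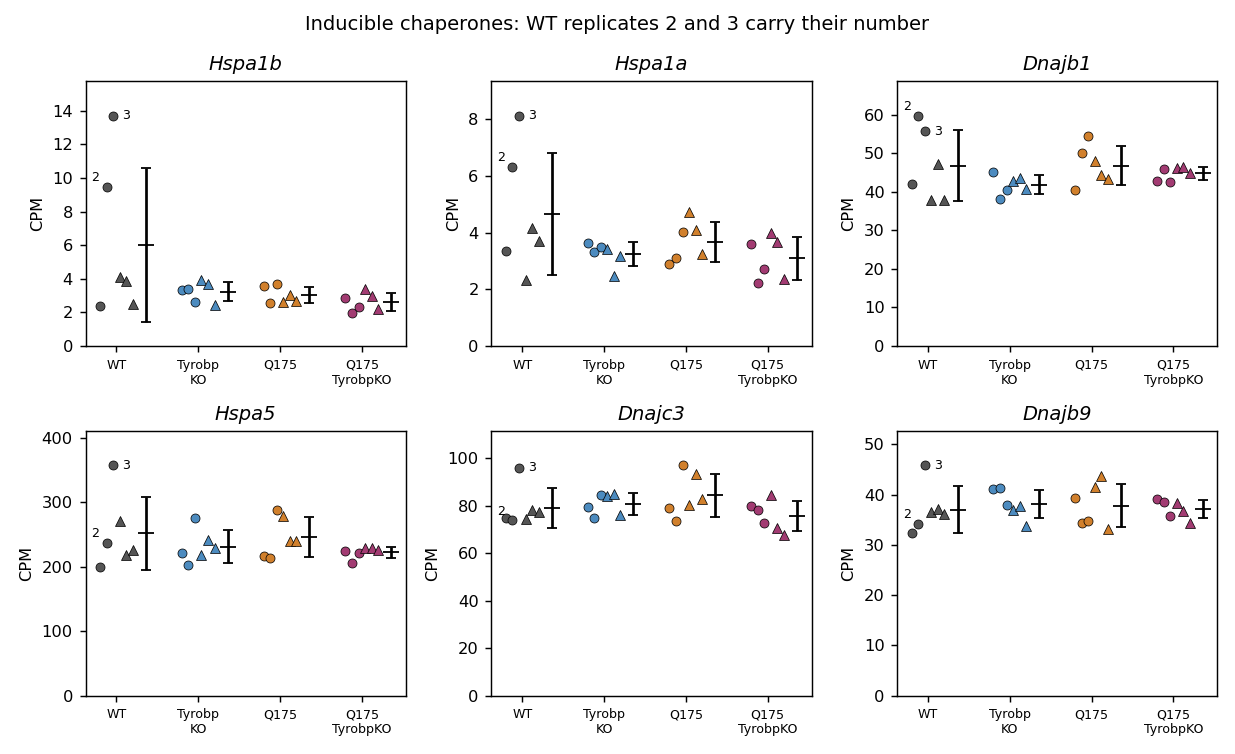
Levels of 6 inducible chaperone genes in each mouse. The y axis gives CPM (TMM-scaled) from 0; circles are males, triangles females, bars mean ± SD (n = 6), and the digits 2 and 3 mark WT replicates 2 and 3. Hspa1b reaches 9.49 and 13.7 CPM in these libraries and stays at 4.11 CPM or lower in the other 22.

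Once the means of genotype and sex were removed, Hspa1b varied with other inducible genes across the 24 mice. The residual log2 level of Hspa1b had a Pearson r of 0.69 with Hspa1a (Spearman rho 0.64; permutation p 0.00028 and 0.00093, adjusted 0.00123 and 0.00651 over 7 relations). With Dnajb1, the J-domain partner of inducible Hsp70, r was 0.67 (rho 0.60; permutation p 0.00035 and 0.00244, adjusted 0.00123 and 0.00854). Leaving out WT replicates 3 and 1, the libraries farthest from the median, r was 0.52 and 0.60. That check kept WT replicate 2, with residuals of 0.79, 0.44 and 0.33 for Hspa1b, Hspa1a and Dnajb1. It therefore cannot show whether the relation holds without both WT replicates 2 and 3. For Hsph1 r was 0.51 (permutation p 0.0135, adjusted 0.0238), for Fos 0.49 (0.0151, adjusted 0.0238), for Hsp90aa1 0.48 (0.0170, adjusted 0.0238) and for Hspa8 0.43 (0.0372, adjusted 0.0434), but their rho values, from 0.24 to 0.35, had adjusted permutation p values of 0.175 to 0.292. For Hsp90aa1 and Hspa8 r fell to 0.28 and 0.23 without WT replicates 3 and 1, so the relation rests on them. A relation with Hspb1 was not detectable at this number of mice (r = 0.13, permutation p 0.531; rho 0.03).

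The other chaperone genes were not called in any genotype contrast. They are the Hsp70 relatives Hspa12a, Hspa14 and Hspa1l, the class A gene Dnaja4, the class B genes Dnajb3, Dnajb4, Dnajb5 and Dnajb12, and the class C genes Dnajc4, Dnajc9, Dnajc11, Dnajc13, Dnajc14, Dnajc16, Dnajc17, Dnajc19, Dnajc21, Dnajc24, Dnajc25, Dnajc27, Dnajc28 and Dnajc30. With them stand Hspbap1, Hspb11, a subunit of the intraflagellar transport complex, the small heat shock protein Hspb3 and Cct8l1. In Q175 against WT their values ran from -0.32 ± 0.17 for Hspa1l (adjusted p 0.275) to 0.21 ± 0.64 for Hspb3 (0.892), which at under 1 CPM had a 95% interval of -1.04 to 1.47. Hspa12a, the Hsp70 relative enriched in brain and more abundant than most of this group, was at 136, 146 and 202 CPM in WT and 155, 168 and 197 CPM in Q175. Those ranges overlapped, and the difference was 0.17 ± 0.09 (adjusted p 0.281). In each genotype the mouse highest for Hspa12a was also the highest for the summed markers of cortical excitatory neurons, for example WT replicate 5. The part of those markers in the values of Hspa12a was not tested. Dnajc11, of the mitochondrial outer membrane, was at 56.6 to 59.8 CPM in TyrobpKO and 61.1 to 64.2 CPM in Q175_TyrobpKO, without overlap, but its difference of 0.10 ± 0.05 was not called (0.335).

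TyrobpKO against WT asked what the loss of Tyrobp changed without the Q175 allele. It called 1 of the 74 genes, Hspb6, beside 0.117% of all genes (0.0458% higher). An unadjusted p under 0.05 was found for 8 of the 74, beside 1269 of all 19667 genes. Hspb6 (ENSMUSG00000036854, chromosome 7, 30552178 to 30555443) encodes HSP20, a small heat shock protein best known from muscle. Its levels were 2.67, 3.58 and 3.92 CPM in WT, 4.51, 5.03 and 6.98 CPM in TyrobpKO, 3.90, 4.47 and 4.70 CPM in Q175 and 3.96, 4.46 and 5.75 CPM in Q175_TyrobpKO. Every TyrobpKO mouse lay above every WT mouse, the only one of the 74 genes so separated here (beside 0.356% of all genes, 0.153% higher). The log2 fold change was 0.62 ± 0.13 (adjusted p 0.0455).

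This call stood close to the threshold. It was lost in 21 of 24 fits that each left out 1 library, where the value ranged from 0.50 to 0.67 and the adjusted p from 0.0375 to 0.261, and it was kept without WT replicate 5, without TyrobpKO replicate 4 and without Q175_TyrobpKO replicate 1. Between Q175_TyrobpKO and Q175 the value was 0.07 ± 0.13 (adjusted p 0.940). Hspb6 starts 135 kb beyond the end of Tyrobp on chromosome 7, so that loss of Tyrobp and sequence inherited with the deleted allele cannot be told apart for it. Its exons overlap those of Proser3 and Lin37 on the other strand, which gave 0.20 (adjusted p 0.790) and -0.07 (adjusted p 0.877) in this contrast. Smooth muscle markers, summed, were at 8.49 to 12.5 CPM in WT and 9.17 to 12.6 CPM in TyrobpKO.

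The other genes on chromosome 7, Hspbp1 (ENSMUSG00000063802, chromosome 7, 4660521 to 4685068) and Dnajb13 (ENSMUSG00000030708, chromosome 7, 100501716 to 100514960), lie much farther from Tyrobp and were not called (0.10 ± 0.07, adjusted p 0.786, and 0.07 ± 0.46, 0.986). Hspbp1, an exchange factor for Hsp70, was at 38.3 to 48.1 CPM in WT and 42.8 to 49.1 CPM in TyrobpKO. Dnajb13, a protein of motile cilia, was at 2.30 CPM in Q175 replicate 3 and at 0.427 to 0.576 CPM in WT. The summed ependymal markers were highest in the same library, at 58.6 CPM beside 16.8 to 35.3 in the other Q175 mice, as were the choroid plexus markers, at 4097 CPM, and Hspb8, at 18.7 CPM.

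**Figure D5:**
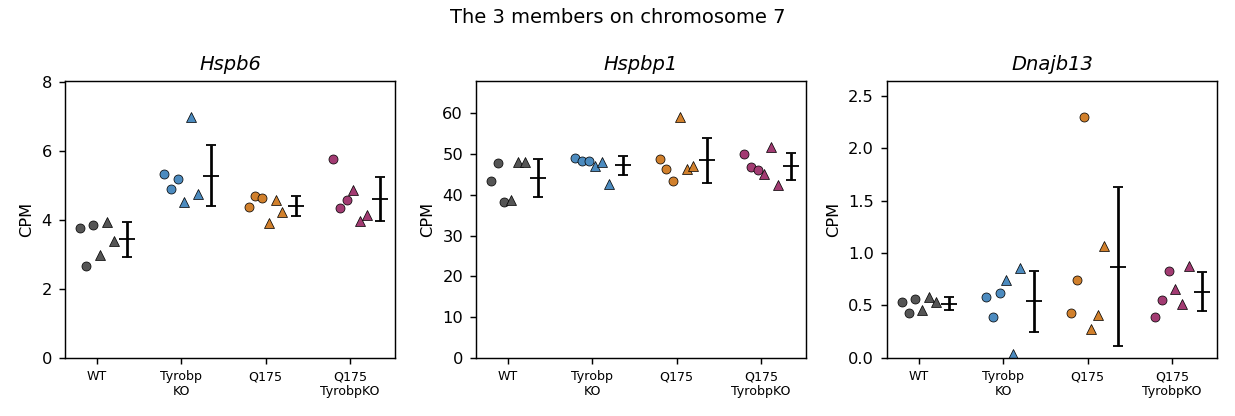
Levels of the 3 chaperone genes on chromosome 7, which also carries Tyrobp. The y axis gives CPM (TMM-scaled) from 0; circles are males, triangles females, bars mean ± SD (n = 6). For Hspb6 the 6 TyrobpKO mice (4.51 to 6.98 CPM) lie above the 6 WT mice (2.67 to 3.92), while for Hspbp1 and Dnajb13 the genotypes overlap.

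Of the small heat shock proteins, Hspb1 averaged 5.93 ± 0.973 CPM (SD, n = 6) for WT, 4.43 ± 0.917 for TyrobpKO, 4.42 ± 1.66 for Q175 and 3.81 ± 1.03 for Q175_TyrobpKO. Neither its value in TyrobpKO against WT (-0.42 ± 0.20, adjusted p 0.749) nor that in Q175 against WT (-0.43 ± 0.20, 0.183) was called. In TyrobpKO against WT all 10 inducible genes had a negative value, with a median of -0.14 and none called. In Q175_TyrobpKO against Q175 all 10 were negative as well, with a median of -0.15 and none called. Of the 10, 3 had an unadjusted p under 0.05 there, beside 1187 of all 19667 genes. Over all genes, 9775 values were negative in TyrobpKO against WT and 9899 in Q175_TyrobpKO against Q175. Several of the 10 vary together between animals, as given above, and Q175 replicate 4 was the highest Q175 mouse for 6 of them. The largest of the 10 in TyrobpKO against WT were Hspa1b (-0.83 ± 0.31, 0.749) and Hspa1a (-0.51 ± 0.22, 0.749), whose WT levels are given above. In this contrast the 5 cortical excitatory neuron markers were all positive (median 0.87). The 12 striatal projection neuron markers were all negative (median -0.29), with none of either list called. In Q175_TyrobpKO against Q175 the cortical markers were all positive (median 0.48). The 5 microglia and 8 ependymal markers were all negative there (medians -0.17 and -0.27). The part of these markers was not tested.

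Q175_TyrobpKO against Q175, the loss of Tyrobp in carriers, called 0 of the 74 genes in edgeR, DESeq2 and limma-voom, beside 0.158% of all genes in edgeR. An unadjusted p under 0.05 was found for 7 of the 74, beside 1187 of all 19667 genes. Of the 74, the smallest p belonged to Hspa12b, at 5.84, 6.15 and 7.44 CPM in Q175 and 6.90, 8.50 and 9.15 CPM in Q175_TyrobpKO (0.35 ± 0.12, adjusted p 0.696). Hsp90b1 (-0.15 ± 0.06, 0.764), Hspa8 (-0.16 ± 0.07, 0.818) and Hsp90aa1 (-0.15 ± 0.06, 0.818) followed. This contrast shares the Q175 mice with Q175 against WT.

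Sexes were compared over the 4 genotypes. Female against male called 0 of the 74 genes in edgeR, DESeq2 and limma-voom, beside 0.0814% of all genes in edgeR. Of the 74, 1 gene, Hspa4 (0.08 ± 0.04), had an unadjusted p under 0.05, beside 796 of all 19667. The interaction of the Q175 allele with sex also called 0, beside 0% of all genes. At an unadjusted p under 0.05 it had 2 of the 74, Hspa1a (0.75 ± 0.28) and Dnajb5 (0.31 ± 0.12), beside 593 of all 19667. Its values were positive for 60 of the 74 genes and 9988 of all 19667, with a median of 0.05 beside 0.00 over all genes. Of the inducible genes, 10 of 10 were positive. The 2 WT mice with high inducible chaperones are both males and enter this contrast. Their part in these values was not tested.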

How the data were processed

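Raw read counts, whole numbers without normalization, were deposited by the authors as 1 table of genes by libraries, with symbol, coordinates and a gene length in bases (other columns of the same deposited table). The submitters' processing notes name STAR, featureCounts, DESeq2 and the genome build GRCh38 without saying what each was used for. The identifiers and coordinates are those of mouse: all 74 genes were found in GENCODE release M21 (GRCm38), 71 with the same start and end. Use of strand is not given in the sources used here. Per the labels, RNA was taken with Trizol from frozen striatum of 1 hemisphere.

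Counts were fitted with edgeR 4.0.16 in R 4.3.3 (limma 3.58.1): TMM, filterByExpr on genotype, a robust quasi-likelihood fit of all 24 libraries with genotype means and a sex term. Interactions with sex used a mean for each genotype and sex. Of the genes, 19667 were tested, among them all 74 described here, and p-values were adjusted over all of them. The SE of a log2 fold change was derived from the test statistic. The biological coefficient of variation was 16.2%. RPKM divides the CPM by the deposited gene length. Correlations used residual log2(CPM + 0.5) and 100000 permutations, 2-sided. Alternatives were DESeq2 1.42.0, limma-voom, other scaling, no filter, no sex term, subsets of libraries and leaving out each library. Within genotypes the 60 library pairs differed by more than sampling noise (mean chi-square per gene 6.89 to 42.6), so each was counted once. Replicate numbers follow the order of deposition and pair nothing. The labels do not say whether libraries were prepared together.

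On simulated counts for Q175 against WT (19350 genes), the test called 98 of 100 genes changed by 1 on the log2 scale and 29 of 100 changed by 0.3, with 9 false calls. Only these genes were changed, a smaller share than the 9.63% of genes called in the data. The shares recovered therefore do not measure the power of the real contrast.

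The genes, the gene lists and the tests were chosen with earlier results of these data known. Named genes are those called in a genotype contrast, the 2 most abundant and the 2 of smallest p of each family, the stress-inducible, endoplasmic reticulum and synaptic sets, those on chromosome 7, those of adjusted p within 0.05 of the threshold and the 3 most and least variable. Other genes named, and the endoplasmic reticulum stress element, were chosen after their values were seen.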

Additional observations from a re-analysis of the deposited data

Results flagged for a closer look

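For each of the 74 genes the 4 groups of 6 mice were searched for a mouse far from the other 5, by Dixon's test at its 95% critical value. Of 296 groups, 26 held such a mouse, where chance gives about 1 in 20, or 14.8. They fell in 13 libraries.

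Q175 replicate 4 was the highest Q175 mouse in 4 of these groups among CCT and Hsp90 genes, with Hsp90ab1 at 1669 CPM, Cct8 at 172.4, Cct7 at 166 and Cct3 at 136 CPM, and also for Hspbp1, at 59.1 CPM. WT replicate 3 was highest for Dnajc3 at 96.0 CPM, Dnajb9 at 45.8 and Dnajb3 at 1.39 CPM. WT replicate 5 was highest for Hspa12a (202 CPM) and Dnajc15 (68.2), WT replicate 6 for Dnajc18 (95.5), and WT replicate 2 was lowest for Dnajc8 (83.1) and Dnajc19 (18.6).

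In TyrobpKO, replicate 5 was highest for Cct2 (127 CPM) and Hspb6 (6.98) and lowest for Hspa2 (26.6), and replicate 6 was lowest for Hspbp1 (42.8). Without TyrobpKO replicate 5 the value of Hspb6 in TyrobpKO against WT was 0.50 and was not called. In Q175, replicate 3 was highest for Hspb8 (18.7 CPM) and lowest for Dnajb12 (39.5), and replicate 1 was lowest for Cct8l1 (0.0775). In Q175_TyrobpKO, replicate 3 was highest for Dnajb12 (56.0 CPM) and Cct8l1 (0.825) and lowest for Hsp90b1 (209.7), replicate 6 was highest for Hsph1 (382), and replicates 2 and 4 were lowest for Hspa5 (206) and Hspe1 (37.1).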

How the results depend on the processing

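Alternatives were computed for the counts of calls and for 30 single log2 fold changes, those called in a genotype contrast and those of adjusted p between 0.05 and 0.1 in Q175 against WT. None of these 30 changed sign, and the other printed values were not recomputed. For Q175 against WT the 6 calls became 11 in DESeq2, 3 in males only and 0 in females only. The shares of all genes called there were 11.8%, 3.82% and 0.946%, beside 9.63% in the main fit. For Q175_TyrobpKO against TyrobpKO the 4 calls became 0 in males only and 2 in females only. In those settings 0.523% and 1.47% of all genes were called, beside 5.86% in the main fit. The 1 call of TyrobpKO against WT became 0 with the genes of chromosome 7 left out, with no low-count filter, with only the 12 libraries of the 2 groups, in males only, in females only, and with WT replicates 2 and 3 left out together, a setting chosen after the data were seen. The 13 calls in carriers became 8 with no low-count filter, 4 in males only and 6 in females only. Leaving out each of the 24 libraries in turn gave 5 to 9 calls in Q175 against WT, 3 to 5 in Q175_TyrobpKO against TyrobpKO, 0 to 1 in TyrobpKO against WT, 11 to 15 in carriers and 0 in the other contrasts. Hsp90b1, Dnajc7, Dnajc8, Hspa13 and Hspa2 kept their calls in Q175 against WT in all 24 of these fits. Cct4 there lost its call with no low-count filter (adjusted p 0.0697) and with only the 12 libraries of the 2 groups (0.0834), and Hspa12b gained one with RLE size factors (0.0490) and with no sex term (0.0497). In carriers the calls lost with no low-count filter were those of Cct2, Dnajc18, Dnajc15, Dnajc2 and Dnajc12. With 1 sex only, each genotype had 3 mice. No paired analysis was possible because the labels carry no replicate numbers and those used here only follow the order of deposition.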
